A study of Arabidopsis thaliana with 6 samples.

Results

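The histone genes of *Arabidopsis thaliana* were examined in inflorescence stems that overexpress *CLE41* and in wild-type stems. The members were 45 listed loci, namely 3 for the linker histone H1, 12 for H2A, 11 for H2B, 11 for H3 and 8 for H4. A locus was taken as measured where the probe table tied a probe set (the group of short probes that reads one transcript) to it alone, and probe sets shared only among listed loci were kept apart. In this way 15 loci had a probe set of their own and another 16 were covered by 14 shared probe sets, which gave 29 histone probe sets among 22746 on the array. The other 14 loci, which include all 12 H2A loci, *HTB9* and *HTR11*, had no probe set named for them and were not analysed here.

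The plants were 35S::CLE41 plants in ecotype Columbia (3 samples) and wild-type Columbia plants, called WT (3 samples), all 5 weeks old and grown with 16 h of light and 8 h of dark. In 35S::CLE41 the viral 35S promoter, active in most tissues, drives *CLE41*, whose secreted peptide TDIF is normally made in the phloem and received by the receptor kinase PXY in the cambium, so the transgene is not limited to the tissue that makes the peptide. RNA came from the lower part of the stem, leaving out the 1 cm next to the rosette, and each sample was read on 1 array. The labels do not say how many transgenic lines or plants went into a sample, nor that the samples came from separate plants, so the variation behind each p-value is that of these arrays and could be technical.

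In a nucleosome, DNA is wound around H2A, H2B, H3 and H4, and H1 binds the linker DNA between nucleosomes. Replication-coupled histones are made mainly while a cell copies its DNA, and they package the new strands. H3.1 is the replication-coupled H3 of plants, while the variant H3.3 is deposited throughout the cell cycle and is rich over transcribed genes. In the stem the dividing cells lie mostly in the cambium, the layer between xylem and phloem. All H4 loci encode the same protein, and H4 and the main H2B loci are grouped here with H3.1 as replication-coupled, although plants make some of these transcripts outside DNA replication too.

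The arrays had median intensities from 91.9 to 101, and their number (6) limits the precision. *CLE41* itself was at log2 intensities of 11.27, 11.73 and 11.38 on the 35S::CLE41 arrays, against 9.68, 9.42 and 9.98 on the WT arrays, a rise of 1.77 (SE 0.18, limma adjusted p = 0.0013) in the labelled direction. WT replicate 2 stood apart: it differed at least 2-fold from the other WT arrays at 365 probe sets, against 32 to 100 for each of the other arrays within its genotype. Values without it are given below for the histone differences whose direction turns or whose size changes by over 1.5 times without it. All values are log2 normalized intensity, and a difference is the 35S::CLE41 mean minus the WT mean with its standard error (SE) from limma. A probe set is called where limma's p, adjusted by Benjamini-Hochberg over all 22746 probe sets, lay under 0.05.

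Of the 29 histone probe sets 4 were called, 3 higher and 1 lower in 35S::CLE41. This is 13.8% of them, near the 14.8% called over the whole array, where 7.93% were higher and 6.86% lower. Separate ranges in the 2 genotypes were found at 5 histone probe sets higher and 8 lower in 35S::CLE41, against 18.7% and 15.8% of all probe sets. Without WT replicate 2 the numbers were 5 and 9, against 22.8% and 18.8% of all. All 5 H3.1, all 5 H4 and 8 of 9 H2B probe sets had differences below 0, as did 49.6% of all probe sets, whereas all 3 H3.3 and all 3 H1 probe sets had differences above 0. Without WT replicate 2 all 5 H3.1 probe sets, 3 of 5 for H4 and 5 of 9 for H2B were below 0, and H3.3 and H1 were again all above it. An unadjusted limma p under 0.05 was reached by 15 of the 29 histone probe sets and by 6660 of all 22746. By class these were all 5 for H3.1, 2 of 3 for H3.3, all 3 for H1, 2 of 5 for H4 and 3 of 9 for H2B. With all arrays shifted to 1 median, the called histone probe sets numbered 2 higher and 3 lower, and those of the whole array 1392 higher and 1975 lower, against 1803 higher and 1561 lower with the deposited scaling.

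**Figure D1:**
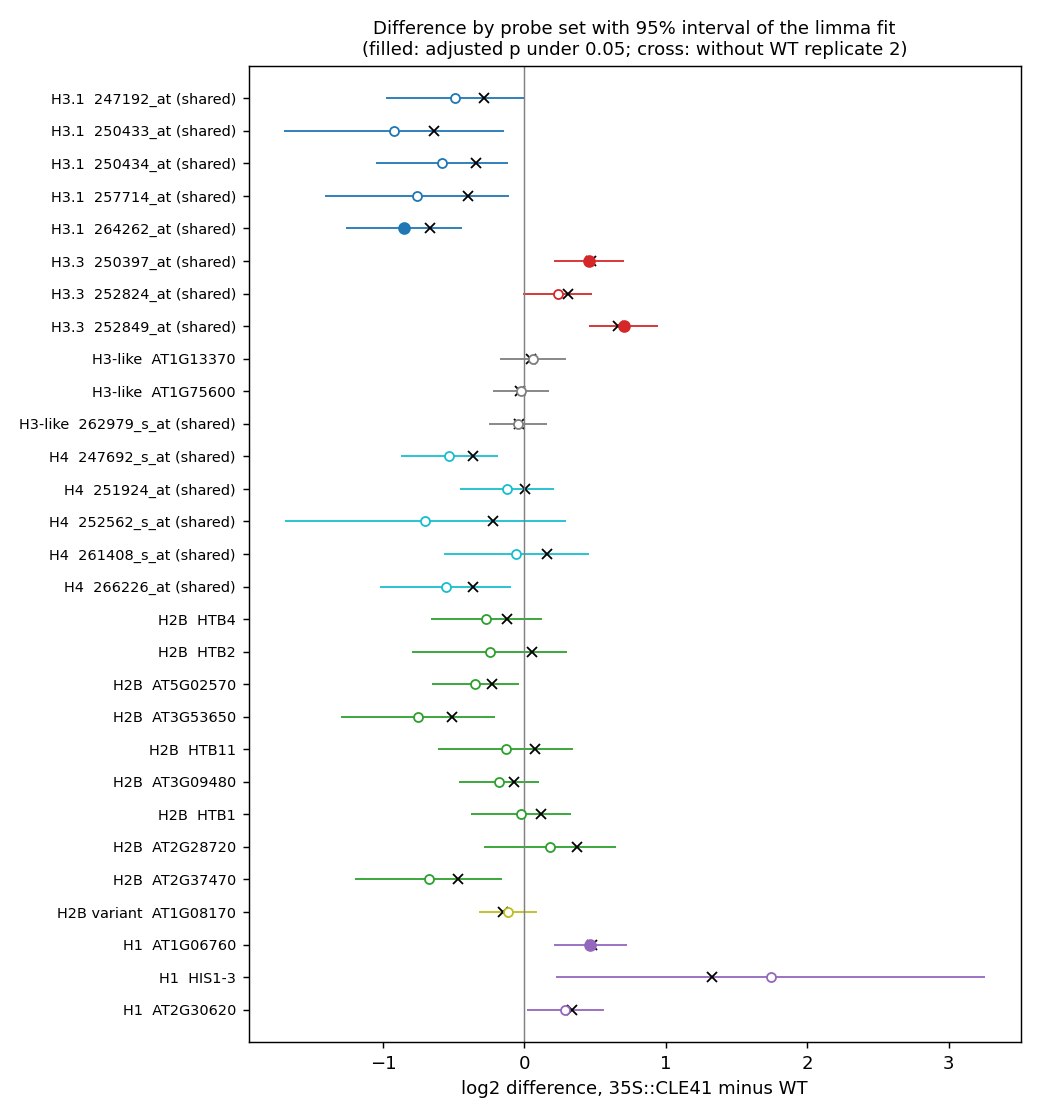
Log2 difference (x axis, 35S::CLE41 minus WT) of each of the 29 histone probe sets, coloured by class, with the 95% interval of the limma fit over 3 arrays per genotype. Filled circles passed an adjusted p of 0.05 and crosses give the value without WT replicate 2. H3.1 lies below 0 throughout and H3.3 and H1 above it.

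The H3.1 genes, the replication-coupled H3, were represented by 5 probe sets. The probe table gave each of them to the same 5 loci (AT1G09200, AT3G27360, AT5G10390, AT5G10400 and AT5G65360), so which locus each one reads is not known. AT5G10390 and AT5G10400 are neighbours in the RefSeq annotation (TAIR10.1). Since the loci are not resolved, the 5 were taken as readings of 1 gene group and cannot be counted as 5 independent genes.

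Probe set 264262_at was the H3.1 probe set that passed the test. It had 8.88, 9.24 and 8.94 on the 35S::CLE41 arrays, against 9.72, 10.24 and 9.65 on the WT arrays. Every 35S::CLE41 array lay below every WT array. It fell by 0.85 (SE 0.18, limma adjusted p = 0.0181), which is 1.81-fold lower, and without WT replicate 2 by 0.67 (limma adjusted p = 0.0173). The call was lost without 35S::CLE41 replicate 1 or 3 (limma adjusted p = 0.0657 and 0.065).

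The other 4 H3.1 probe sets differed in the same direction without passing. 250433_at had 7.60, 6.77 and 7.58 in 35S::CLE41, against 8.35, 8.81 and 7.56 in WT, a difference of -0.92 (SE 0.34, limma adjusted p = 0.112). Its groups overlapped only through WT replicate 3, which lay below 2 of the 35S::CLE41 arrays. 257714_at had 7.79, 7.77 and 7.95 in 35S::CLE41, against 8.41, 9.31 and 8.06 in WT, a difference of -0.76 (SE 0.28, limma adjusted p = 0.117). Here the groups did not overlap, and WT replicate 3 lay closest to the 35S::CLE41 arrays. 250434_at differed by -0.58 (SE 0.20) and 247192_at by -0.49 (SE 0.21). Without WT replicate 2 the differences were -0.40 for 257714_at, -0.34 for 250434_at and -0.28 for 247192_at. In 247192_at the 35S::CLE41 arrays stood at 9.00, 9.01 and 8.99, and the WT arrays at 9.58, 9.91 and 8.99, so WT replicate 3 was at the 35S::CLE41 level. The median H3.1 difference was -0.76, against 0.002 over all probe sets, and -0.40 without WT replicate 2. In bulk stem RNA, fewer cells of a type and less RNA per cell cannot be told apart.

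The H4 genes were read by 5 probe sets, each given to the same 8 loci, *HIS4* among them. None was called by limma, and 2 had an unadjusted p under 0.05. The nearest was 247692_s_at, with 10.85, 10.88 and 10.77 in 35S::CLE41, against 11.17, 11.69 and 11.22 in WT. Its groups did not overlap. The difference was -0.53 (SE 0.15, limma adjusted p = 0.0501), and it passed in 4 of 12 alternative settings, with limma adjusted p up to 0.14 over the 12.

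266226_at, another H4 probe set, had 7.37, 7.55 and 7.79 in 35S::CLE41, against 8.12, 8.51 and 7.74 in WT. It differed by -0.56 (SE 0.20, limma adjusted p = 0.107), or -0.36 without WT replicate 2, and WT replicate 3 lay under the highest 35S::CLE41 array. 252562_s_at had the widest WT spread of the histone probe sets, with 8.01, 7.94 and 8.11 in 35S::CLE41, against 8.84, 9.67 and 7.65 in WT. Its difference of -0.70 (SE 0.43) ran from -1.24 without WT replicate 3 to -0.23 without WT replicate 2. The last H4 pair, 251924_at and 261408_s_at, differed by -0.12 (SE 0.14) and -0.06 (SE 0.22), with intervals that hold 0. Without WT replicate 2 they differed by 0.0019 and 0.16, so their direction rested on that array. The median H4 difference was -0.53, and -0.23 without WT replicate 2.

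H2B, which pairs with H2A in the nucleosome, was the class with most probe sets of single genes, 9 in all. None was called by limma, 3 had an unadjusted p under 0.05, and the median difference was -0.25, or -0.07 without WT replicate 2. AT2G37470 had 7.47, 7.37 and 7.41 in 35S::CLE41, against 8.23, 8.51 and 7.54 in WT. Its groups did not overlap, and it differed by -0.68 (SE 0.22, limma adjusted p = 0.0844). AT3G53650 had 4.13, 4.10 and 4.16 in 35S::CLE41, against 4.96, 5.37 and 4.31 in WT, a difference of -0.75 (SE 0.23, limma adjusted p = 0.0715). Its groups did not overlap either, but it belonged to the dimmest 40% of probe sets (mean log2 intensity under 5.67), where the size of a difference is uncertain. Both passed with array weights and without WT replicate 3 (limma adjusted p = 0.00769 for AT2G37470 and 0.0093 for AT3G53650). Neither passed without WT replicate 2 (limma adjusted p = 0.162 and 0.112), and with 1 array left out their limma adjusted p reached 0.204 and 0.177. AT3G53650 also passed with arrays shifted to 1 median (limma adjusted p = 0.0447).

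AT5G02570, the third H2B locus whose groups did not overlap, had 6.10, 6.00 and 5.88 in 35S::CLE41, against 6.15, 6.58 and 6.29 in WT. It differed by -0.35 (SE 0.13, limma adjusted p = 0.127), and by -0.23 without WT replicate 2. The other 6 H2B loci overlapped between genotypes. *HTB4* differed by -0.27 (SE 0.17), *HTB2* by -0.25 (SE 0.24), AT3G09480 by -0.18 (SE 0.12) and *HTB11* by -0.13 (SE 0.21). *HTB1* differed by -0.03 (SE 0.15) and AT2G28720 by 0.18 (SE 0.20), which made AT2G28720 the 1 replication-coupled probe set above 0. *HTB2*, *HTB11* and *HTB1* lay above 0 without WT replicate 2, at 0.05, 0.07 and 0.12. Without that array *HTB4* differed by -0.12, AT3G09480 by -0.07 and AT2G28720 by 0.37, and AT2G28720 was below 0 without WT replicate 3, at -0.04.

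The H3.3 genes were read by 3 probe sets, each given to AT4G40030, AT4G40040 and AT5G10980, of which AT4G40030 and AT4G40040 are neighbours in the same annotation. H3.3 replaces H3.1 in chromatin outside DNA replication. 252849_at had 12.75, 12.76 and 12.52 in 35S::CLE41, against 12.02, 11.89 and 12.00 in WT. It rose by 0.70 (SE 0.11, limma adjusted p = 0.0056), or 1.63-fold. All 35S::CLE41 arrays were above all WT arrays, and it was called in each of 12 alternative settings, with limma adjusted p up to 0.0275.

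250397_at, also H3.3, had 11.71, 11.96 and 11.82 in 35S::CLE41, against 11.45, 11.40 and 11.26 in WT. It rose by 0.46 (SE 0.11, limma adjusted p = 0.0289), or 1.37-fold, again with no overlap. It was called in 6 of 12 alternatives and was lost without any single array other than WT replicate 2 (limma adjusted p up to 0.0898). 252824_at had 12.30, 12.12 and 12.20 in 35S::CLE41, against 11.89, 12.11 and 11.91 in WT. Its groups met without overlapping, since 35S::CLE41 replicate 2 was barely above WT replicate 2, and the difference of 0.23 (SE 0.11, limma adjusted p = 0.19) did not pass. The median H3.3 difference was 0.46, and 0.47 without WT replicate 2.

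None of the remaining H3 and H2B variant probe sets was called by limma, and none had an unadjusted p under 0.05. The H3-like loci AT1G13370 and AT1G75600 differed by 0.06 (SE 0.10) and -0.03 (SE 0.09), and the probe set they share, 262979_s_at, by -0.05 (SE 0.09). All 3 probe sets lay in the dimmest 40%, between 3.28 and 4.18 on every array, and no detection call was at hand to say whether this is above background. AT1G08170, classed as an H2B variant, had 6.00, 6.05 and 6.01 in 35S::CLE41, against 6.14, 6.08 and 6.20 in WT. Its groups did not overlap, yet the difference was -0.12 (SE 0.09, limma adjusted p = 0.461).

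The linker histone genes were read by 1 probe set each. AT1G06760 had 11.46, 11.23 and 11.24 in 35S::CLE41, against 10.94, 10.87 and 10.72 in WT. It rose by 0.47 (SE 0.11, limma adjusted p = 0.03), or 1.38-fold, with no overlap. It was the 1 called gene among the 15 with a probe set of their own, where 12.6% of all such probe sets were called. The call held in 7 of 12 alternatives and was lost with arrays shifted to 1 median (limma adjusted p = 0.0579), without any single 35S::CLE41 array (limma adjusted p up to 0.104) and without WT replicate 3 (limma adjusted p = 0.0769).

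AT2G30620, the second H1 gene, had 10.92, 11.12 and 10.84 in 35S::CLE41, against 10.73, 10.77 and 10.53 in WT. Its groups did not overlap and it differed by 0.29 (SE 0.12, limma adjusted p = 0.147). *HIS1-3*, encoding a linker histone known to be induced by drought and abscisic acid, had the widest difference among the histone probe sets and also the largest SE. It had 8.26, 6.00 and 8.08 in 35S::CLE41, against 5.49, 4.88 and 6.75 in WT, so WT replicate 3 was above 35S::CLE41 replicate 2. The difference was 1.74 (SE 0.66, limma adjusted p = 0.121), with a 95% interval from 0.22 to 3.26. It ran from 1.33 without WT replicate 2 to 2.46 without 35S::CLE41 replicate 2, where it was called (limma adjusted p = 0.039). It was also called with array weights (limma adjusted p = 0.0384).

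**Figure D2:**
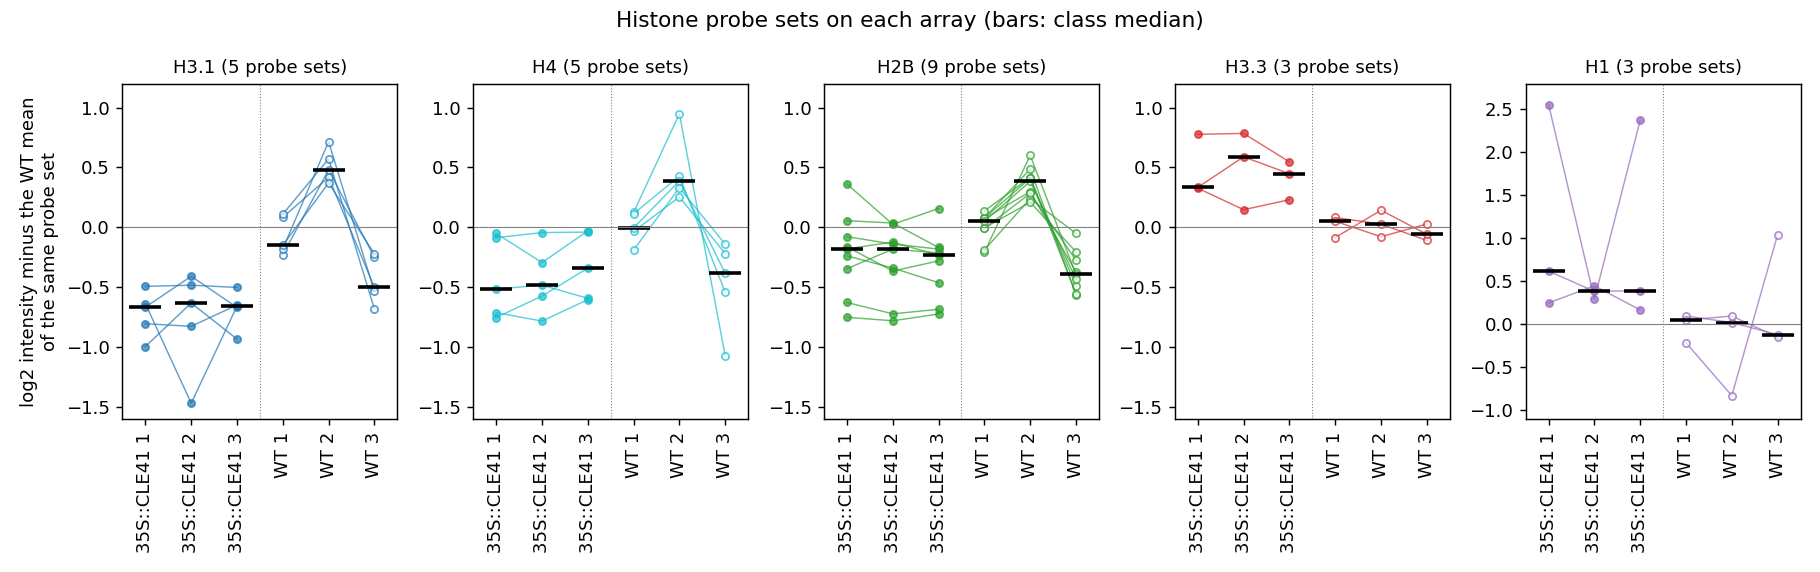
Log2 intensity of each histone probe set on each array minus the WT mean of that probe set (y axis), in 1 panel each for H3.1, H4, H2B, H3.3 and H1, with 35S::CLE41 arrays filled and WT arrays open; lines join the readings of 1 probe set within a genotype and carry no order, and black bars are class medians. The H1 panel has a wider y axis. The medians of H3.1, H4 and H2B are high in WT replicate 2 and low in WT replicate 3. The H3.3 median is nearly level across WT and higher in 35S::CLE41.

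The replication-coupled probe sets were then set beside the variants by array, with each probe set expressed relative to its own WT mean. The median of the 19 replication-coupled probe sets stood at -0.49, -0.41 and -0.46 on the 35S::CLE41 arrays, against -0.0046, 0.41 and -0.39 on the WT arrays. WT replicate 3 was thus close to the 35S::CLE41 arrays, and the genotypes were parted by WT replicates 1 and 2. For H3.1 alone the medians were -0.67, -0.63 and -0.66 in 35S::CLE41, against -0.15, 0.48 and -0.50 in WT. For H3.3 they were 0.33, 0.59 and 0.45 in 35S::CLE41, against 0.05, 0.03 and -0.06 in WT, so every 35S::CLE41 median was above every WT median, although the arrays met at 252824_at. The median difference was -0.49 for the replication-coupled probe sets, 0.06 for the 7 variant probe sets and 0.47 for H1. Without WT replicate 2 these medians were -0.23, 0.05 and 0.48. The variant median is that of a mixed group, with the 3 dim H3-like probe sets and AT1G08170 beside H3.3, and it was -0.02 with arrays shifted to 1 median. The difference between classes itself was not tested.

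Counts of replication-coupled calls moved with the arrays used and with the settings. With all arrays 1 of 19 was called, and it was lower, or 5.26%, where 6.86% of all probe sets were called lower. Without WT replicate 2 it was also 1, and 13 of 19 differences were below 0, against 18 of 19 with all arrays. Without WT replicate 3, 8 of 19 were lower, where 6.01% of all probe sets were. Those 8 were 4 H3.1 and 2 H4 probe sets and the H2B loci AT2G37470 and AT3G53650. Without 35S::CLE41 replicate 1 or replicate 3 it was 0 of 19, with arrays shifted to 1 median 3 and with array weights 4. Over the whole array the lower calls numbered 1561 with all arrays and 1382 without WT replicate 2. They numbered 964 and 917 without 35S::CLE41 replicate 1 or 3, 1975 with arrays shifted to 1 median and 1840 with array weights.

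Within WT the replication-coupled probe sets varied together. The 5 H3.1 probe sets share 1 group of loci, as do the 5 H4 probe sets, so the 19 are not independent genes. WT replicate 2 was the highest WT array at 19 of 19, against 39.3% of all probe sets, and it was highest with WT replicate 3 lowest at 17 of 19, against 20.3%. These probe sets had a median range of 0.18 over the 35S::CLE41 arrays and 0.82 over the WT arrays. The WT range was the wider one at 19 of 19, against 57.7% of all probe sets, whose median ranges were 0.24 in 35S::CLE41 and 0.28 in WT. For H3.3 the median ranges were 0.24 in 35S::CLE41 and 0.19 in WT. The spread within genotype behind the standard errors of the replication-coupled differences was thus wider in WT. Those errors also draw on the variance of all probe sets, through eBayes.

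**Figure D3:**
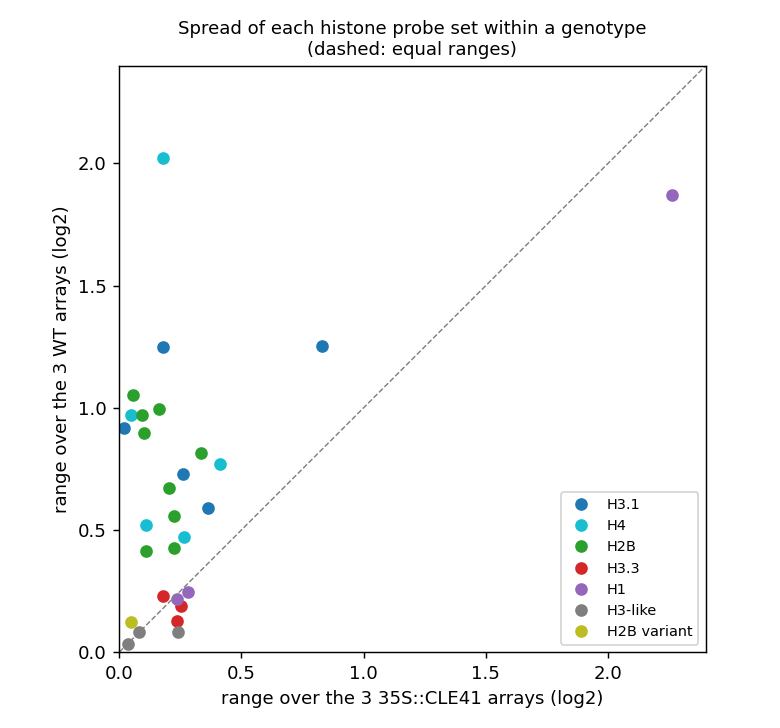
Range (highest minus lowest log2 intensity) of each histone probe set over the 3 35S::CLE41 arrays (x axis) and over the 3 WT arrays (y axis), coloured by class, with a dashed line of equal ranges. All H3.1, H4 and H2B points lie above the line, and *HIS1-3* lies at the top right with a wide range in both genotypes.

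Genes that handle histones or act in the same cell cycle phases were thinly covered. Of 25 histone chaperone and exchange genes 5 were measured and none was called by limma, with 1 at an unadjusted p under 0.05. The 5 differences were above 0, from 0.0076 to 0.29. With 1 array left out *ASF1B* and AT4G37210 reached -0.06 and -0.03, while *SGA2*, *ATRX* and *SWC2* stayed above 0. *SWC2*, a subunit of the complex that exchanges H2A for H2A.Z, differed by 0.28 (SE 0.10, limma adjusted p = 0.1), and *ATRX*, a remodelling factor that helps deposit H3.3, by 0.29 (SE 0.13, limma adjusted p = 0.193), or 0.18 without WT replicate 2. Of 36 DNA replication genes 3 were measured and all 3 were below 0, but AT5G26680 was at 0.03 without WT replicate 2. *PRL*, which encodes the helicase subunit MCM7, fell by 0.41 (SE 0.11, limma adjusted p = 0.0428). That call was lost without WT replicate 2 (limma adjusted p = 0.0878), and with 1 array left out limma adjusted p reached 0.145. *ICU2*, the catalytic subunit of DNA polymerase alpha, differed by -0.29 (SE 0.14).

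Of 21 genes of G2 and mitosis 4 were measured and none was called by limma, with 2 at an unadjusted p under 0.05. All 4 were below 0, but *AUR3* was at 0.07 without WT replicate 2. The Aurora kinase gene *AUR1*, which acts in mitosis, had 7.51, 7.43 and 7.25 in 35S::CLE41, against 7.99, 8.75 and 7.83 in WT. WT replicate 2 was its highest and WT replicate 3 its lowest WT array, the order seen at the replication-coupled histones. It differed by -0.79 (SE 0.23, limma adjusted p = 0.0551), and without WT replicate 2 it fell by 0.51 and was called (limma adjusted p = 0.0336). *AUR2* differed by -0.48 (SE 0.21), and by -0.22 without WT replicate 2. *HTR12*, encoding the centromeric H3 and named after its values were seen, had 4.71, 4.74 and 4.77 in 35S::CLE41, against 5.06, 5.26 and 4.80 in WT, a difference of -0.30 (SE 0.13, limma adjusted p = 0.173) in the dimmest 40%. It had the same order of WT arrays, and without WT replicate 2 it differed by -0.19. *AUR2*, *AUR3* and the DNA replication genes *PRL*, *ICU2* and AT5G26680 also had WT replicate 2 highest, but WT replicate 1 lowest.

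Markers of stem tissues also differed between the genotypes, and their part in the histone values was not tested. Of 6 cambium markers *MOL1* was measured, and its intensity ran from 343 to 444 in 35S::CLE41 and from 268 to 293 in WT. It rose by 0.51 (SE 0.12, limma adjusted p = 0.0267), and with 1 array left out limma adjusted p reached 0.0904. The xylem and fibre wall genes *GUT2* and *IRX15*, 2 of 12 listed, summed to between 2320 and 3298 in 35S::CLE41 and between 985 and 2396 in WT, with WT replicate 2 lowest for both genes. The phloem genes *OPS* and *SWEET11*, 2 of 7, summed to between 144 and 196 in 35S::CLE41 and between 138 and 155 in WT. Of the 6 green tissue genes *PRK* and *SBPASE* summed to between 5827 and 6706 in 35S::CLE41 and between 7640 and 9439 in WT. The epidermal gene *WSD1*, 1 of 6, ran from 52.0 to 71.2 in 35S::CLE41 and from 389 to 759 in WT, and with *SBPASE* it was called lower. No measured marker was at 0 on any array, but no detection call was at hand to say whether each is above background.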

How the data were processed

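Trizol RNA of each sample was biotin-labelled and read on 1 array, per the labels' protocols. The deposited table gives 1 normalized intensity, on a linear scale, for each probe set and array. RMA and limma are the tools that the submitters' processing notes name, without an order or version, and no genome build is named in them. Log2 of the intensity was taken here with no further scaling.

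Probe sets were named from the platform's probe table through RefSeq (TAIR10.1 annotation). Of these 13513 had 1 gene, 503 had several and 8730 were not listed. All probe sets were tested with limma 3.58.1 under R 4.3.3 (a linear model of genotype with eBayes, two-sided p, Benjamini-Hochberg adjustment), after a check on simulated data. An exact permutation test of 3 arrays against 3 gives no p under 0.1 and was left out. Classes and gene lists came from textbook knowledge and are described by counts and medians. Every measured member is named, and from each other list the called genes or the 2 with the smallest p. The members and lists were chosen with earlier results of these data known. The alternatives were the replicate block, 2 other scalings, leaving out the dimmest 40%, eBayes with trend and robust settings, array weights, shared probe sets in the count of genes, and each array left out in turn. Promoter and protein sequences were not used here. Figures were drawn with matplotlib 3.10.9.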

Additional observations from a re-analysis of the deposited data

How the results depend on the processing

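Each alternative changed 1 choice, except that the trend and robust settings of eBayes were switched on together. Of 344 values of the 29 histone probe sets, 303 kept their direction and their side of the threshold, 18 gained a call, 13 lost one and 10 reversed. Called histone probe sets lower in 35S::CLE41 numbered 2 with the replicate block, without the dimmest 40% and with trend and robust settings, 3 with arrays shifted to 1 median and 4 with array weights, against 1 as reported; leaving out 1 array gave 1 to 3 higher and 0 to 8 lower. Of genes with their own probe set, 1 was called higher and 0 lower; this became 2 higher with the replicate block, 2 higher and 2 lower with array weights, 0 higher and 1 lower with arrays shifted to 1 median, 3 higher and 1 lower with shared probe sets counted, and 0 to 1 higher and 0 to 2 lower with 1 array left out. The whole array had 3364 calls, and 1699 to 2872 with 1 array left out. Arrays shifted to 1 median moved the median of all probe sets to -0.08, that of the H3-like class to -0.10, of the variants to -0.017 and of AT1G08170 to -0.20 (-0.19 with quantile normalization), and 41.3% of all calls were then higher, against 53.6% as deposited. Without the dimmest 40% the variant median was 0.35. With 1 array left out, medians ran from -0.96 to -0.40 for H3.1, from -0.60 to -0.23 for H4 and from -2.0e-05 to 0.12 for the variants. Directions reversed at AT1G13370 (-0.017 with arrays shifted to 1 median; -2.0e-05 to 0.12 with 1 array left out) and *HTB1* (0.024 with array weights; -0.16 to 0.12). With 1 array left out they also reversed within -0.23 to 0.0019 (251924_at), -0.33 to 0.16 (261408_s_at), -0.44 to 0.054 (*HTB2*), -0.38 to 0.072 (*HTB11*) and -0.036 to 0.37 (AT2G28720). The causes of these changes were not tested.

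Replicate numbers are shared by the genotypes, but the deviations of same-numbered arrays correlated at -0.01, 0.08 and -0.09, so the numbers were not taken to pair the samples. The replicate block gave 2897 calls over the whole array and, at the histones, 3 higher and 2 lower. Under it *HIS1-3* (limma adjusted p = 0.0245), the H3.1 probe set 250434_at (limma adjusted p = 0.044) and *AUR1* (limma adjusted p = 0.0451) were called, and the H3.3 probe set 250397_at (limma adjusted p = 0.0565) and *PRL* (limma adjusted p = 0.0577) were not. Probe sets that are dim have uncertain differences, and 4 histone probe sets were among the dimmest 40%. Shared probe sets cannot be assigned to 1 locus. With 3 arrays per genotype and WT replicate 2 apart, replication-coupled differences carry the spread of WT.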
